A study of Homo sapiens with 9 samples.

Results

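ESO-51 is an established human cell line, labelled as an oesophageal adenocarcinoma whose source was a gastric cardia adenocarcinoma. Its RNA-seq library was compared, over all genes, with the libraries of 8 other lines of the same description: ESO-26, FLO-1, JH_EsoAd1, OAC_5.1_C, OACP4_C, OE19, OE33 and SK-GT-4. The ESO-51 library was 1 of 9 in the series, and every line was grown to 80% confluency without treatment. The design text states 3 technical replicates per line, but each line has a single column of gene counts and the sources used here do not say how the replicates entered it. No difference between ESO-51 and another line therefore has a replicate check, and no test was made. Each value below is a description of 1 library of 1 line beside 8 libraries of 8 different lines.

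The ESO-51 column held 40683038 counts for named genes, against 16801179 to 69881539 in the other 8, and 14399 genes reached 1 CPM (the read count relative to the effective library total), against 13742 to 15193. Mitochondrial genes took 4.68% of its counts, against 1.48% to 24.7%. Across 9994 expressed protein-coding genes, the ESO-51 difference fell with the GC content of the transcript (Spearman rho -0.18 across genes, which are not independent, against -0.17 to 0.15 in the other libraries). The 75 expressed ribosomal protein genes had a median difference of -0.78 on the log2 scale in ESO-51, the lowest of the 9 libraries, against -0.38 to 0.94. Among the other 8, ERBB2 goes against a label, since OE19 is widely known for ERBB2 amplification. The library with that name had 188 CPM of ERBB2, and the one named SK-GT-4 had 17792 CPM. Library names are used as labels only, and an exchange of names among the other 8 would leave their lowest, median and highest values as they are. An exchange that involved the name ESO-51 would change the values below, and whether that name is right was not tested. Each library is a bulk culture, so more cells that express a gene and more RNA per cell cannot be told apart.

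Oesophageal adenocarcinoma usually arises in Barrett's oesophagus, where the squamous lining is replaced by a columnar epithelium that can take on intestinal features. In the gut, the CDX and HNF4 transcription factors drive the genes of absorptive enterocytes, whose apical brush border carries digestive enzymes and transporters, while Wnt signalling maintains the stem cells at the base of the crypts. Amplification of ERBB2, which encodes the receptor tyrosine kinase HER2, is a recurrent event in cancers of the oesophagus and gastric cardia.

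Levels are CPM after scaling, and differences are on the log2(CPM + 1) scale, which understates the change of genes at low levels. A gene was called higher in ESO-51 when it lay at least 4-fold above the highest of the other 8 libraries at 5 CPM or more, and lower when it lay at least 4-fold below the lowest of them, with that lowest library at 5 CPM or more. Of 19675 genes that reached 1 CPM in at least 1 library, 86 were called higher (0.437%) and 20 were called lower (0.102%). The same rule applied to each of the other 8 libraries in turn called 37 to 178 genes higher and 9 to 175 genes lower. Over 2-fold above the median of the other 8 lay 11.8% of the measured genes, and over 2-fold below it lay 10.1%. ESO-51 stood above each of the other 8 libraries in 12% of the measured genes and below each of them in 10.7%. The median difference over all measured genes was 0.00. Without the libraries labelled OE19 and SK-GT-4, 164 genes were called higher and 47 lower against the remaining 6.

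**Figure D1:**
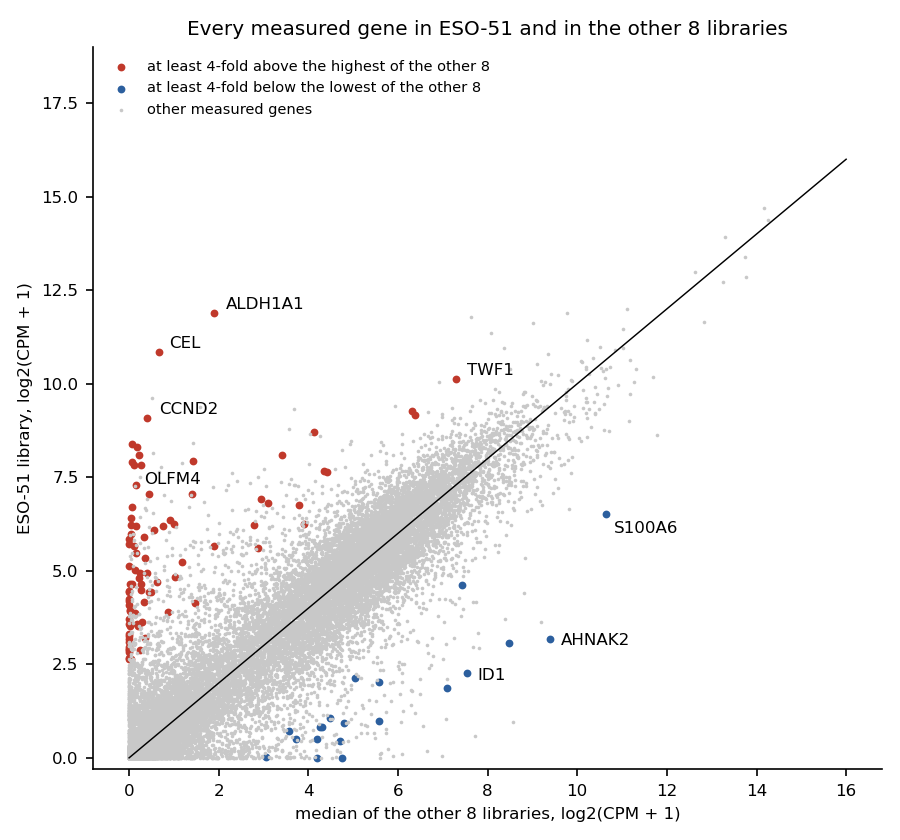
Each point is 1 of 19675 measured genes, with its level in the ESO-51 library on the vertical axis and the median level of the other 8 libraries on the horizontal axis, both as log2(CPM + 1). Red points are the 86 genes at least 4-fold above the highest of the other 8, blue points the 20 genes at least 4-fold below the lowest, and the line marks equal values. Most red points sit near 0 on the horizontal axis, where the other libraries hardly express the gene, with CEL, ALDH1A1 and CCND2 the furthest from the line.

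The gene with the largest gap to every other library was a digestive lipase. CEL, the bile salt-dependent lipase that the exocrine pancreas and the lactating breast secrete, had 1853 CPM in ESO-51 (95% Poisson interval 1840.3 to 1865, counting error only). In the other 8 libraries it had 0.217 CPM at the lowest, 0.584 CPM at the median and 4.61 CPM at the highest, a gap of 8.37 to the nearest of them. Its neighbouring pseudogene CELP was 314 CPM, against at most 0.355 CPM elsewhere. CEL and CELP are near-identical copies, so how reads were split between them is uncertain.

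OLFM4, a secreted glycoprotein that marks intestinal crypt stem cells, had 227 CPM in ESO-51, against a lowest of 0, a median of 0.083 and a highest of 0.45 CPM in the other 8. DPEP1, a membrane dipeptidase, had 271 CPM, against 0.0218, 0.173 and 1.47 CPM in the same order. MGAM2, a gene related to the brush border maltase-glucoamylase, had 333 CPM, against 0, 0.0507 and 11.3 CPM. All of these stood far above every other library, and for MGAM2 only SK-GT-4 and OE19 exceeded 1 CPM among the rest. GGT6, a member of the gamma-glutamyltransferase family, had 72.8 CPM, against a highest of 0.434 CPM elsewhere. MALRD1, which in mice is an intestinal protein that regulates bile acid synthesis through Fgf15, had 51.6 CPM, against a median of 0 and a highest of 0.0921 CPM.

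CYP2W1, a cytochrome P450 described in colorectal tumours, had 81.7 CPM in ESO-51, against 0.169, 0.881 and 3.31 CPM (lowest, median and highest of the other 8). TSPOAP1, which encodes a binding protein of the mitochondrial translocator protein, had 227 CPM, against at most 1.48 CPM elsewhere. The adjacent and overlapping membrane protein genes TMEM176A and TMEM176B had 73.2 and 104 CPM, against at most 0.239 and 0.999 CPM in the other libraries. Since they overlap and the strand setting of the counting is not given, their separate levels are uncertain. VSNL1, a neuronal calcium sensor, had 66.6 CPM, against a highest of 2.20 CPM. KIAA1324, an endosome- and lysosome-associated membrane protein, had 59.1 CPM, against a highest of 1.67 CPM. For KIAA1324 the gap fell to 1.70 with the authors' FPKM, under the 4-fold line, while it held for the other 14 of the 15 protein-coding genes ranked highest by gap, under each of 7 settings of scaling, pseudocount, unit or GC adjustment. FPKM carried a pseudocount of 1, so a gene at low FPKM in ESO-51, such as KIAA1324 at 2.36 FPKM, could not reach that line.

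ALDH1A1, a retinal dehydrogenase used as a stem cell marker, was the called gene with the highest level. It had 3796 CPM in ESO-51, against a lowest of 0.315, a median of 3.18 and a highest of 894 CPM, the last in OE19, and its gap fell to 1.96 after GC adjustment, just under the 4-fold line. Per transcript length, in the FPKM that the authors deposited, ALDH1A1 reached 594 FPKM and CEL 511 FPKM in ESO-51. These values compare with 104 FPKM for ERBB2 and 51.4 FPKM for OLFM4.

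CCND2, which encodes cyclin D2, had 538 CPM in ESO-51, against a lowest of 0.0376, a median of 0.318 and a highest of 16.2 CPM elsewhere. Its relative CCND1, the cyclin D1 gene, had 39.3 CPM in ESO-51 and was below every other library, which held 109 CPM at the lowest, 454 CPM at the median and 1270.2 CPM at the highest. Both encode D-type cyclins, which partner CDK4 and CDK6 before DNA replication, and CCND2 was far above all other libraries where CCND1 was below them all.

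Of the 86 genes called higher, 77 were protein-coding, 6 were pseudogenes, 2 were antisense RNAs and 1 was a lincRNA. In 36 of the 86 every other library was under 1 CPM. Genes that every other library lacked altogether were OBP2B, an odorant-binding protein, and CDH7, a cadherin, named here after their values were seen. With a floor of 3 counts per library they were at least 64.4-fold and at least 38.9-fold higher in ESO-51. The library nearest below ESO-51 was most often SK-GT-4 (20 of 86 genes, 23.3%), followed by FLO-1 (13 genes) and ESO-26 (12 genes). Over all measured genes SK-GT-4 was the highest of the other 8 in 12.5%. The called genes just inside the 4-fold line were ATP10B (gap 2.01), LRIG1 (2.01) and YAF2 (2.02), and those just outside it were CARMIL2 (1.96), HILPDA (1.95) and RPAP3 (1.97). Besides CELP, the non-coding or pseudogene names with the largest gaps were AC005550.2, AC093720.1, AC147055.1 and AC064805.1, at 20.4, 17.4, 9.01 and 6.06 CPM in ESO-51, each under 1 CPM in every other library.

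Some of the transcription factors of the intestine were high in ESO-51. CDX1, a caudal homeobox factor of the intestine, had 84.7 CPM in ESO-51, against a lowest of 0, a median of 0.0245 and a highest of 1.12 CPM in the other 8. ISX, an intestine-specific homeobox factor that represses vitamin A uptake genes, had 56.7 CPM, against a highest of 0.147 CPM. Both were called higher. CDX2, the caudal factor that defines intestinal identity, had 99.8 CPM, against 0.441, 5.43 and 79.6 CPM. Here OE19 came close to ESO-51, and the next library had only 7.96 CPM.

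HNF4A, a nuclear receptor of gut and liver, had 167 CPM in ESO-51, against 0, 5.01 and 134 CPM. Its intestinal paralogue HNF4G had 113 CPM, against 0.0751, 2.21 and 45.9 CPM. The forkhead factors FOXA2 and FOXA3 had 15.4 and 11.9 CPM, second to SK-GT-4, and the orphan receptor NR5A2 had 29.5 CPM, above the highest of the other 8 (15.5 CPM). PDX1, the factor of duodenum and pancreas, had 3.86 CPM, second to SK-GT-4 at 4.18 CPM.

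Other gut factors did not stand out. GATA4 (12.4 CPM), GATA6 (28.3 CPM), KLF4 (44.9 CPM), KLF5 (207 CPM), SOX9 (101 CPM), EHF (331 CPM) and ELF3 (259.7 CPM) were less than 2-fold from the median of the others, and GATA5 had 0 counts (up to 0.0666 CPM allowed). CREB3L3 was near 0 at 0.0222 CPM, and ATOH1, the factor that commits cells to secretory fates, was under 1 CPM in every library. FOXA1 (15.4 CPM, median elsewhere 38.4) and the foregut factor SOX2 (0.133 CPM, median elsewhere 1.88) were over 2-fold below the median. In all, 10 of 22 measured gut transcription factors were over 2-fold above the median of the other 8 and 3 were over 2-fold below, with a median difference of 0.82, or 1.02 without OE19 and SK-GT-4.

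Genes of the enterocyte brush border and of absorption followed in number. Of 29 measured members 24 were over 2-fold above the median of the other 8 and 1 was over 2-fold below it, with a median difference of 2.23, or 2.72 without OE19 and SK-GT-4, 1.36 with a pseudocount of 5 and 1.09 with the authors' FPKM. A member could count as measured through ESO-51 alone, and 17 of the 32 members found reached 5 CPM there. GUCY2C, the receptor of guanylin, had 132 CPM in ESO-51, against 0.0936, 1.84 and 7.50 CPM (lowest, median and highest elsewhere). FABP2, the intestinal fatty acid-binding protein, had 49.8 CPM, against 0, 0.0761 and 4.88 CPM. A1CF, the partner of the apolipoprotein B editing enzyme, had 43.8 CPM, against 0, 0.105 and 6.49 CPM. KRT20, a keratin of differentiated gut epithelium, had 11.5 CPM, against a highest of 1.45 CPM. These 4 members were called higher, but the 4-fold gap was lost with the authors' FPKM for A1CF (1.31), and with FPKM and a pseudocount of 5 for KRT20 (1.36 at the lowest).

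The largest difference from the median in the list was that of CDH17, liver-intestine cadherin, and it was shared with other libraries. CDH17 had 784 CPM in ESO-51, and SK-GT-4 (775 CPM) and OE19 (691 CPM) came close, while the median of the other 8 was 0.421 CPM. VIL1, the actin bundler villin, had 283 CPM in ESO-51 and 331 CPM in SK-GT-4, against a median of 0.442 CPM. USH1C, which encodes the microvillar scaffold harmonin, had 198 CPM, against 163 CPM in OE19 and a median of 0.598 CPM. MYO7B, the myosin of the same tip-link complex, had 119.7 CPM, against 147 CPM in OE19 and a median of 0.354 CPM. Summed over all 32 members found, this list reached 2424 CPM in ESO-51, against 3785 CPM in SK-GT-4, 4728 CPM in OE19 and 34.7 to 234 CPM in the remaining 6 libraries.

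Some classical enterocyte products were nevertheless missing or low. FABP1, the liver-type fatty acid-binding protein, had 0 counts in ESO-51 and at most 0.0624 CPM elsewhere. The sucrase-isomaltase gene SI reached 1.55 CPM and had 0 counts in every other library. SI was thus measured through ESO-51 alone, and it is among the members over 2-fold above the median. The carbonic anhydrase gene CA2 was the member over 2-fold below the median, at 0.999 CPM, against a median of 18.97 CPM elsewhere. These 3 members were named after their values were seen.

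Many crypt stem cell and Wnt target genes were also high, although their sum was near that of OACP4_C and SK-GT-4. Summed over 21 members, this list reached 1224 CPM in ESO-51, against 1199 CPM in OACP4_C, 1156 CPM in SK-GT-4 and 130 to 941 CPM in the rest. Of 21 measured members 13 were over 2-fold above the median of the other 8, 2 were over 2-fold below it, and the median difference was 2.28, or 2.43 without OE19 and SK-GT-4, 1.18 with a pseudocount of 5 and 0.87 with the authors' FPKM. Besides OLFM4, called members were LEF1, a transcription factor of the Wnt pathway, and LRIG1, a negative regulator of ERBB receptors that marks crypt stem cells. LEF1 had 21.5 CPM in ESO-51, against 0, 0.208 and 1.96 CPM, and LRIG1 had 121 CPM, against 3.01, 6.80 and 29.2 CPM. Both calls were lost with a pseudocount of 5 and with FPKM, and that of LRIG1 also with DESeq2 size factors. ASCL2, the master regulator of intestinal stem cells, had 70.8 CPM, against a median of 0.371 CPM and 20.6 CPM in SK-GT-4. RNF43, a Wnt-induced ubiquitin ligase that removes Wnt receptors, had 162 CPM, against a median of 5.53 CPM and 130.0 CPM in SK-GT-4. LGR5, the best known crypt stem cell marker, stood at only 2.11 CPM, with 10.3 CPM in SK-GT-4 and a median of 0.172 CPM. CD44, a Wnt target and adhesion receptor, ran against the list at 44.4 CPM, with a median of 299 CPM elsewhere. LGR5 and CD44 were picked after their values were seen.

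**Figure D2:**
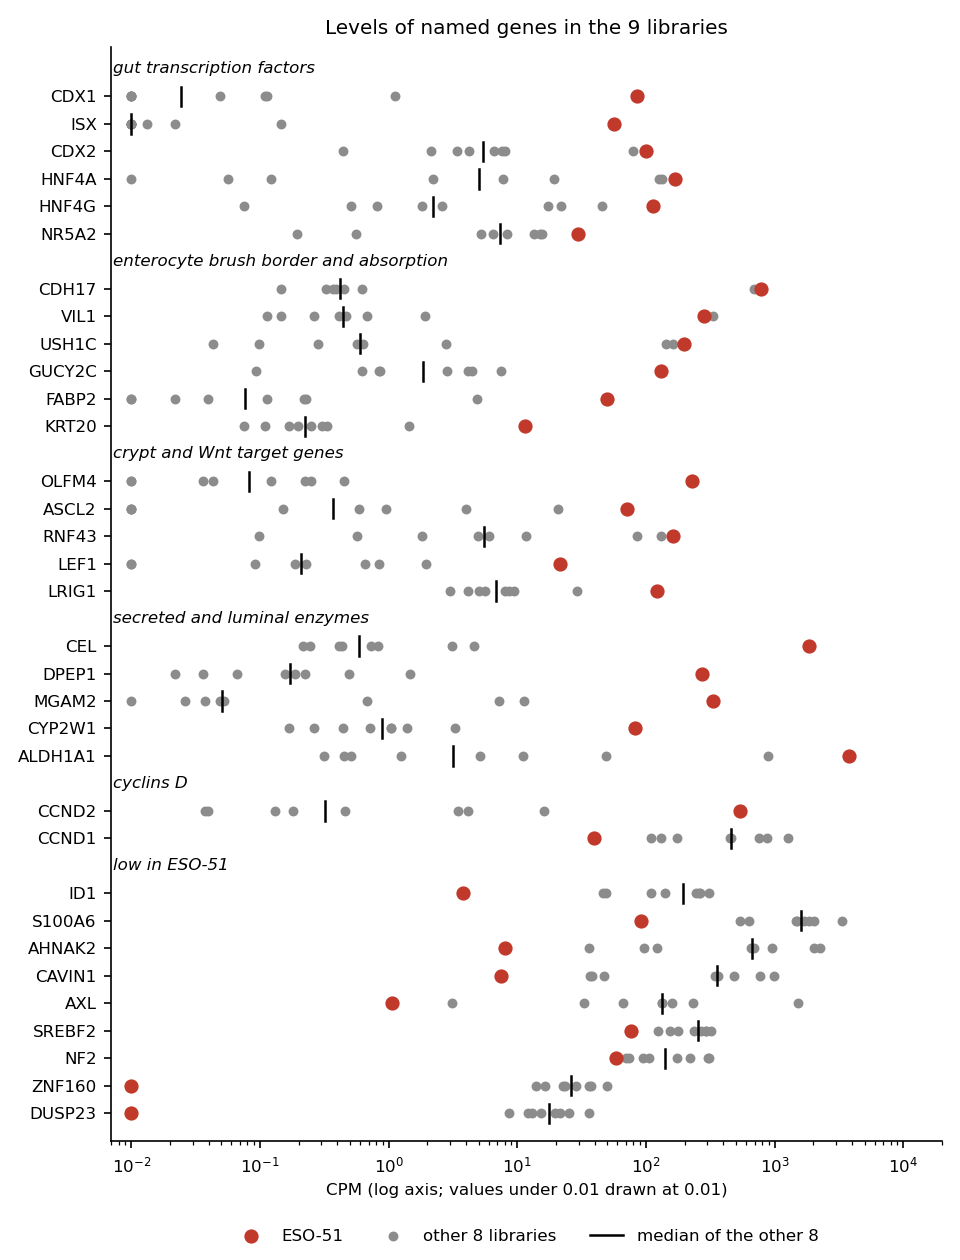
Levels of 33 named genes in CPM on a log axis, with ESO-51 as a large red point, the other 8 libraries as grey points and their median as a black bar. Values under 0.01 CPM, including 0, are drawn at 0.01. CDX1, ISX, GUCY2C, OLFM4, CEL and CCND2 lie to the right of all grey points, while for CDH17, VIL1 and HNF4A 1 or 2 other libraries come close; the genes at the bottom lie to the left of all grey points.

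Goblet, gastric and squamous genes did not follow the enterocyte genes. Secreted mucins, trefoil factors and goblet genes had a median difference of -0.06, with 2 of 16 members over 2-fold above and 2 over 2-fold below. MUC5B, a gel-forming mucin, was below every other library at 0.399 CPM, against 0.526, 39.3 and 1929.8 CPM. Gastric genes had a median of -0.11 (2 of 14 above, 2 below) and summed to 12.6 CPM in ESO-51, against 1.63 to 3720 CPM. Squamous and basal genes had a median of -0.37 (0 of 18 above, 3 below), among them the keratins KRT17 (2.82 CPM, median elsewhere 23.9) and KRT13 (1.82 CPM, median elsewhere 5.84).

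Membrane mucins, which coat the apical surface, had a median difference of 1.32 with 5 of 8 members above and 1 below, but 0.62 with a pseudocount of 5 and 0.18 with the authors' FPKM. MUC13, an intestinal membrane mucin, had 218 CPM in ESO-51, against a median of 0.653 CPM and a highest of 341 CPM in OE19. MUC20 had 42.9 CPM, against a median of 7.48 CPM, whereas MUC16, the CA125 antigen, was 1 count (0.0222 CPM), below every other library and against a median of 16.7 CPM. Among enzymes that build mucin and blood group sugars, FUT3, the Lewis fucosyltransferase, had 68.1 CPM, above every other library (highest 40.02 CPM). GCNT1, a core 2 branching enzyme, had 49.3 CPM (highest elsewhere 42.5), FUT2, the secretor gene, had 41.1 CPM (median elsewhere 2.96), and GALNT5 was low at 0.865 CPM (median elsewhere 37.7). The sugar enzyme list as a whole was divided, with 8 of 27 members above and 7 below.

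The lipase CEL was the one pancreatic enzyme that stood out. Of 8 measured digestive enzymes and acinar factors of the exocrine pancreas 3 were over 2-fold above the median and 1 was below. Trypsinogen PRSS1 had 5.10 CPM, below the 15.1 CPM of SK-GT-4, and mesotrypsinogen PRSS3 had 2.13 CPM, against a median of 25.5 CPM. BHLHA15, an acinar transcription factor, had 6.13 CPM, second to 10.96 CPM in OE19. Only 8 of the 24 listed genes found in the table reached 1 CPM in any library.

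Promoter windows of called genes are shown because several hold letters like those that gut transcription factors bind. Each line gives the 250 bases before the gene's start on the gene's own strand, from RefSeq on GRCh38.p14, with matches to searched motifs in capitals. The lipase CEL had the largest gap of all, and MGAM2, MALRD1 and FABP2 are called genes of the intestinal lining. The windows shown were picked for these reasons from those of 13 called genes with a match. CEL lies at chr9:133061731-133061980 (plus strand), MGAM2 at chr7:142111468-142111717 (plus strand), MALRD1 at chr10:19048551-19048800 (plus strand) and FABP2 at chr4:119322139-119322388 (minus strand).
CEL: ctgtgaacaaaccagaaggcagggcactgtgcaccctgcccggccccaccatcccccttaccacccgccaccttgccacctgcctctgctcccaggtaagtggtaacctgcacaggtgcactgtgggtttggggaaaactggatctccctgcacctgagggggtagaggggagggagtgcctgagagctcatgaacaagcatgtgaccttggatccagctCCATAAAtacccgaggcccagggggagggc
MGAM2: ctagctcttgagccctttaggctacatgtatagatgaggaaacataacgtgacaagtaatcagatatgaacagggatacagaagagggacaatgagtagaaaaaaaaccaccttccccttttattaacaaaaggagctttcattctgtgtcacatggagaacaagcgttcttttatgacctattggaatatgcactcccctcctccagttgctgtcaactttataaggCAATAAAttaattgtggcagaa
MALRD1: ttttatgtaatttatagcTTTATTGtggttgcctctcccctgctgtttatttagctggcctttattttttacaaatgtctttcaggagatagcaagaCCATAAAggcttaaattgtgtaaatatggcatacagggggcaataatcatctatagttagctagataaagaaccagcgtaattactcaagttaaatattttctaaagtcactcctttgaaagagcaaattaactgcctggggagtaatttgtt
FABP2: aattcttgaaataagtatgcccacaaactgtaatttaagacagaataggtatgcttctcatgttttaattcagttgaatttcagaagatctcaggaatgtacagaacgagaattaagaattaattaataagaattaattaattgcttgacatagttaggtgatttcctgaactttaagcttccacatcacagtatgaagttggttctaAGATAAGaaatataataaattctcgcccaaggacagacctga

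The strings searched on both strands were the CDX-type TTTATGG, its other CDX-type form with the letters TTTATTG, an HNF4-type string CAAAGTCCA, a GATA-type string AGATAAG and a palindromic HNF1-type motif, and no matches overlapped each other. CEL held TTTATGG on the opposite strand, starting 30 bases before the gene, MGAM2 held TTTATTG on the opposite strand at 22 bases, MALRD1 held both, and FABP2 held AGATAAG at 42 bases. Of 77 protein-coding genes called higher 66 had at least 1 window, 99 windows in all. A CDX-type match stood in 10 of the 99 windows (10.1%), from 9 genes, against 2041 of 35116 windows of all genes (5.81%). Besides CEL, MGAM2 and MALRD1 these were AFF2, FREM1, GABRA2, PTPRO, SV2B and VSNL1, whose windows are not shown. An HNF4-type match stood in 2 windows (2.02%), against 0.325% of all, a GATA-type match in 3 (3.03%), against 2.36%, and an HNF1-type match in 0, against 0.0057%. Windows of CDX1, ISX and OLFM4 held no match. A match is a string of letters, not a binding site, and these shares were not tested.

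Part of the epithelial genes were high in ESO-51, although their sum was below the median of the other 8, and mesenchymal genes were low. Epithelial junction, keratin and splicing genes had a median difference of 0.94, with 13 of 28 members over 2-fold above and 2 below, and 27 of the 28 reached 5 CPM in ESO-51. The median was 0.42 without ESO-26 or OE33, 0.62 without JH_EsoAd1 and 0.63 without OE19. Their sum was 7604 CPM, against 251 to 21035 CPM in the other 8 with a median of 8095 CPM. EPCAM, the epithelial adhesion molecule, had 1332 CPM in ESO-51, against a lowest of 0.188, a median of 363 and a highest of 561 CPM, and the label of an epithelial cancer line was met in that respect. EPCAM is named here outside the list rule. PRSS8, the membrane protease prostasin, had 180.2 CPM, against a median of 11.5 and a highest of 117 CPM. CLDN3, a tight junction claudin, had 156 CPM, against 11.9 and 71.1 CPM. RAB25, a trafficking GTPase of epithelia, had 85.2 CPM, against a median of 29.5 CPM and a highest of 142 CPM. KRT7, a simple epithelial keratin that colonic epithelium usually lacks, went the other way at 11.4 CPM, against a median of 608 CPM and a highest of 1671 CPM.

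Mesenchymal genes had a median difference of -0.78, with 0 of 23 members over 2-fold above and 9 below, and summed to 47.9 CPM in ESO-51, against 155 to 5228 CPM in the other 8. The median was -0.37 without OAC_5.1_C or JH_EsoAd1, -0.22 with a pseudocount of 5 and -0.10 with the authors' FPKM. AXL, a receptor tyrosine kinase linked to invasive states, had 1.07 CPM, below every other library (lowest 3.12, median 133, highest 1532 CPM). S100A4, a calcium-binding protein also called fibroblast-specific protein, had 2.49 CPM, against 5.75, 77.6 and 1461 CPM. VIM, the intermediate filament vimentin, had 0.0888 CPM, against a median of 13.5 CPM, and FN1, fibronectin, had 8.50 CPM, against a median of 262 CPM. For FN1 the median rests on where the other libraries happen to fall, since it turned to a difference of 0.087 when any 1 of OACP4_C, ESO-26, OAC_5.1_C and JH_EsoAd1 was left out.

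Other gene groups around the cell surface and cytoskeleton were low in the same direction. YAP targets had a median of -0.86 (0 of 16 above, 8 below), or -0.55 without OACP4_C, -0.39 without OAC_5.1_C and -0.33 with the authors' FPKM. F3, tissue factor, had 18.5 CPM, against a median of 252 CPM, the matricellular gene CCN1 had 3.06 CPM, against 27.1 CPM, and CRIM1 had 37.7 CPM, against 181 CPM. S100 genes had a median of -0.92 (1 of 13 above, 6 below), or -0.48 with the authors' FPKM. S100A6, calcyclin, was called lower at 90.8 CPM in ESO-51, against 539, 1589.9 and 3343 CPM, and its gap held under each of those 7 settings. S100A10, the annexin A2 partner, had 61.3 CPM (median elsewhere 337), and S100P had 28.7 CPM (median elsewhere 140.0). CAVIN1, a coat protein of caveolae, and AHNAK2, a large scaffold protein, were just inside the 4-fold line at 7.43 and 8.08 CPM, against medians of 355 and 673 CPM, and both calls were lost with a pseudocount of 5, with FPKM and after GC adjustment.

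Markers of cell types that a carcinoma line should lack were at or near 0. Haematopoietic markers summed to 6.28 CPM over 20 genes in ESO-51, with 10 of them at 0 counts, against 4.39 to 2031 CPM in the other 8. Endothelial markers summed to 2.88 CPM (6 of 11 at 0), against 1.07 to 58.0 CPM, and fibroblast and muscle markers to 8.81 CPM (6 of 14 at 0), against 5.64 to 1527 CPM. Liver markers summed to 10.1 CPM (5 of 20 at 0), against 2.22 to 741 CPM, and neuroendocrine and neural markers to 16.1 CPM (6 of 19 at 0), against 20.4 to 363 CPM. None of these genes reached 5 CPM in ESO-51 except ENO2, neuronal enolase, at 7.99 CPM, which was below the median of 25.5 CPM elsewhere. COL1A1, a collagen of fibroblasts, had 4.64 CPM (median elsewhere 13.2), and ESAM, an endothelial adhesion molecule, had 0.888 CPM (median elsewhere 5.57). Over 2-fold above the median were 1 of 8 measured haematopoietic, 1 of 8 liver and 1 of 10 neuroendocrine and neural members, with 0, 0 and 3 over 2-fold below. Of 8 endothelial and 10 fibroblast and muscle members 0 were above, and 1 of each list was below.

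**Figure D3:**
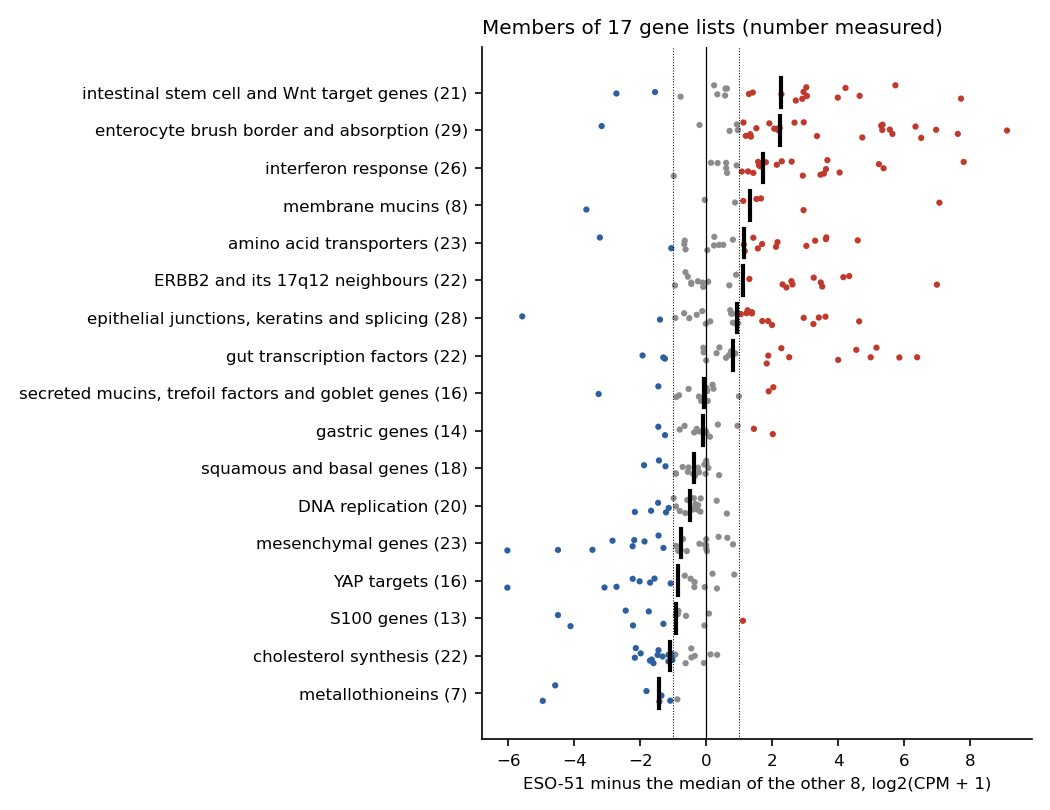
Each point is 1 measured member of a gene list, placed by its ESO-51 level minus the median of the other 8 libraries in log2(CPM + 1), with red for over 2-fold above, blue for over 2-fold below and grey between. Black bars are the medians of the lists and dotted lines mark 2-fold. The medians run from 2.28 for crypt and Wnt genes to -1.42 for metallothioneins.

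ERBB2 and its expressed neighbours on 17q12 were high in ESO-51 as a block. ERBB2 had 3509 CPM (95% Poisson interval 3491 to 3526), against 10.1 CPM at the lowest, 196 CPM at the median and 17792 CPM at the highest, in SK-GT-4. GRB7, an adaptor that binds HER2, had 678 CPM, against 60.8 and 2895 CPM (median and highest), PGAP3, a lipid-remodelling enzyme of membrane anchors, had 385 CPM, against 18.3 and 1319.8 CPM, and MIEN1 had 353 CPM, against 30.8 and 823 CPM. ESO-51 was second to SK-GT-4 for these 4 genes. OACP4_C came next for each of them, at 1406 CPM of ERBB2, 365 CPM of GRB7, 66.9 CPM of PGAP3 and 194 CPM of MIEN1. It too was over 2-fold above the median of its other 8 for all 4 (differences 2.83, 2.58, 1.82 and 2.65). FLO-1 had 639 CPM of ERBB2, a difference of 1.70.

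Elsewhere in the block the order differed. STARD3, a cholesterol-binding protein of endosomes, had 294 CPM and was above every other library (27.03, 47.3 and 243 CPM), with 27.03 CPM in SK-GT-4. TCAP, known as a sarcomere protein, and PNMT, which makes adrenaline, had 9.08 and 6.68 CPM, both above every other library. ZPBP2, a gene of sperm, was called higher at 8.61 CPM, against at most 0.0563 CPM, a call lost with a pseudocount of 5 and with FPKM. PPP1R1B, the phosphatase inhibitor DARPP-32, had 340.0 CPM, second to 462 CPM in OE19 and against a median of 1.86 CPM. GSDMB, a gasdermin, had 63.05 CPM and ORMDL3, a regulator of sphingolipid synthesis, had 95.5 CPM, both second to OACP4_C.

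Taken along the chromosome, the 11 expressed protein-coding genes from PPP1R1B to ORMDL3 were all over 2-fold above the median, with a median difference of 3.26. For gene order, expressed means 5 CPM or more in ESO-51 or as the median of the other 8. PPP1R1B, TCAP, PNMT and ZPBP2 entered through ESO-51 alone (medians elsewhere 1.86, 0.882, 0.547 and 0.00658 CPM). For these genes a difference over 2-fold was fixed in advance. The genes on either side were not over 2-fold above the median: CDK12 had 76.7 CPM, against a median of 119 CPM, MED1 had 50.6 CPM and was below every other library (lowest 54.7 CPM), and PSMD3 had 135 CPM, against a median of 206 CPM. MED24, THRA, NR1D1, MSL1, CASC3 and RARA lay within 2-fold of the median, and NEUROD2, CSF3, LRRC3C and GSDMA stayed under 1 CPM in ESO-51. IKZF3, which lies inside the block between GRB7 and ZPBP2, was also under 1 CPM in ESO-51 and was not among the expressed genes. On the far side of CDK12, the actin-binding gene LASP1 had 1969 CPM, against a median of 329 CPM, with several genes near or below the median between it and the block. On the other flank RAPGEFL1, a gene of the RAP guanine nucleotide exchange factor family, was called higher at 418 CPM, against 2.90, 20.6 and 59.2 CPM. LASP1 and RAPGEFL1 were picked out after their values were seen. Of 22 measured genes in the 17q12 list 11 were above, 0 below and 11 within 2-fold, with a median difference of 1.11.

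A longer block lay on chromosome 12. The 14 consecutive expressed genes from GXYLT1 to SLC38A2 were all over 2-fold above the median of the other 8, with a median difference of 2.28, and 13 of them were above every other library. NELL2 and TMEM117 entered the order through ESO-51 alone (medians elsewhere 0 and 4.20 CPM), and for NELL2 a difference over 2-fold was fixed in advance. This block, its members and flanking genes, and the blocks of other chromosomes given after it were picked out after the values were seen. GXYLT1, a xylosyltransferase of Notch-type sugars, had 198 CPM in ESO-51, against 10.5, 20.3 and 29.4 CPM, and its neighbour YAF2, a component of a Polycomb complex, had 75.8 CPM, against 7.21, 14.03 and 17.96 CPM. TWF1, an actin-binding protein, had 1115 CPM, against a median of 157 and a highest of 275 CPM. The pseudogene TWF1P1 was called higher too, at 47.5 CPM, and reads of the copies may be shared.

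ARID2, a subunit of a SWI/SNF chromatin remodelling complex, had 331 CPM, against 50.03 and 91.3 CPM (median and highest). SLC38A1, a glutamine transporter, had 2638 CPM, against 268 and 1014 CPM, and the adjacent SLC38A2 had 1486 CPM, against 556 and 1034 CPM. SK-GT-4 had under 1 CPM of PUS7L, IRAK4, TWF1, TMEM117, ANO6, ARID2, SCAF11, SLC38A1 and SLC38A2, while for PPHLN1 and ZCRB1 it was the highest of the other 8. Beyond AMIGO2, which was low at 3.64 CPM against a median of 22.2 CPM, RPAP3 (169 CPM, highest elsewhere 42.4) and TMEM106C (622 CPM, highest elsewhere 127) were again above every other library.

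**Figure D4:**
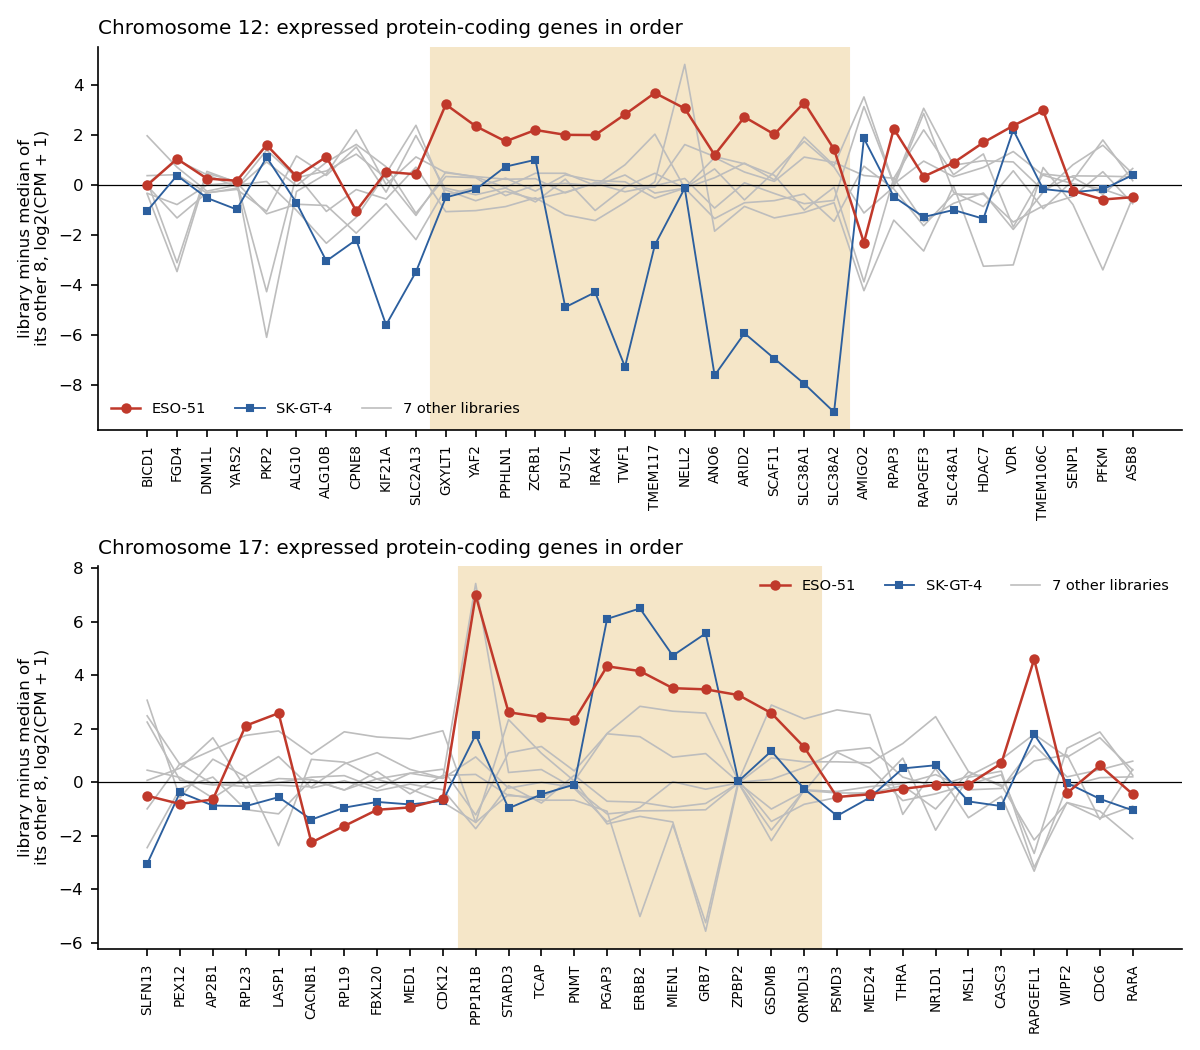
Difference of each library from the median of its other 8 libraries, in log2(CPM + 1), for expressed protein-coding genes in chromosomal order around the block of 14 genes on chromosome 12 (upper panel) and the block of 11 genes around ERBB2 on chromosome 17 (lower panel), shaded. ESO-51 is red, SK-GT-4 blue and the other 7 libraries grey. On chromosome 12 ESO-51 is high where SK-GT-4 falls to as low as -9, and on chromosome 17 ESO-51 is high over the whole block while SK-GT-4 is high from PGAP3 to GRB7.

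Blocks of this kind were not particular to ESO-51. Counting runs of at least 8 consecutive genes over 2-fold above the median, ESO-51 had 5 and the other libraries had 1 to 11, with a longest run of 14 in ESO-51 and of 9 to 37 elsewhere. The order for each library held genes at 5 CPM or more in it or as the median of its other 8. A gene could thus enter through that library alone. Below the median ESO-51 had 4 runs and the others had 0 to 4. The remaining ESO-51 runs above the median were 10 genes on chromosome 13 from GTF3A to UBL3, which include CDX2 and the arginine transporter gene SLC7A1 (547 CPM, highest elsewhere 448), 10 genes on chromosome 15 from ZFAND6 to GOLGA6L9, and 8 genes on chromosome 2 from AGFG1 to C2orf72. All 4 runs below the median lay on chromosome 19 and had 8 genes each. Called genes that were direct neighbours were GXYLT1 and YAF2, TMEM176A and TMEM176B, CAB39L and SETDB2 on chromosome 13 (112 and 107 CPM, at most 16.6 and 20.4 CPM elsewhere), and GAL3ST2 and NEU4 on chromosome 2 (5.28 and 12.01 CPM, at most 0.156 and 0.217 CPM elsewhere). Of these 8 genes YAF2, CAB39L, SETDB2, GAL3ST2 and NEU4 lost the 4-fold gap with the authors' FPKM.

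Whole chromosomes also shifted. Over the 174 expressed protein-coding genes of chromosome 13 the median ESO-51 difference was 0.96, and 86 of them (49.4%) were over 2-fold above the median of the other 8, against 11.3% of all 9994 such genes. Chromosome 15 had a median of 0.61 (86 of 320 genes above, 26.9%) and chromosome 4 a median of 0.50 (70 of 365 genes above, 19.2%). Chromosome 22 had a median of -0.84 (86 of 237 genes over 2-fold below, 36.3%) and chromosome 19 a median of -0.78 (252 of 656 genes below, 38.4%), against 1396 below among all 9994. For these 5 chromosomes ESO-51 lay outside the range of the other 8 libraries, whose own medians ran from -0.65 to 0.76 on chromosome 13, -0.27 to 0.41 on chromosome 15, -0.86 to 0.20 on chromosome 4, -0.39 to 0.30 on chromosome 22 and -0.36 to 0.61 on chromosome 19. Chromosomes 19 and 22 carry GC-rich transcripts (medians 58.9% and 56.4%) and chromosomes 13 and 4 GC-poor ones (41.6% and 41.8%). After the median of genes of like GC content was subtracted, the values were 0.83, 0.51 and 0.35 for chromosomes 13, 15 and 4 and -0.71 and -0.67 for chromosomes 22 and 19. The part of GC content in these shifts was not tested beyond this adjustment. In the authors' FPKM the medians of chromosomes 22 and 19 were -0.37 and -0.35, inside the range of the other 8 libraries (-0.88 to 0.28 and -0.76 to 0.59), while chromosomes 13, 15 and 4 stayed above that range at 0.92, 0.50 and 0.44. On every chromosome the lowest FPKM median of the other 8 was -0.64 or lower. The FPKM range therefore cannot show whether chromosomes 22 and 19 stood apart in ESO-51. Chromosomes 1 and 2 lay above the range of the other libraries and chromosomes 3 and 17 below it, each by a small margin.

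**Figure D5:**
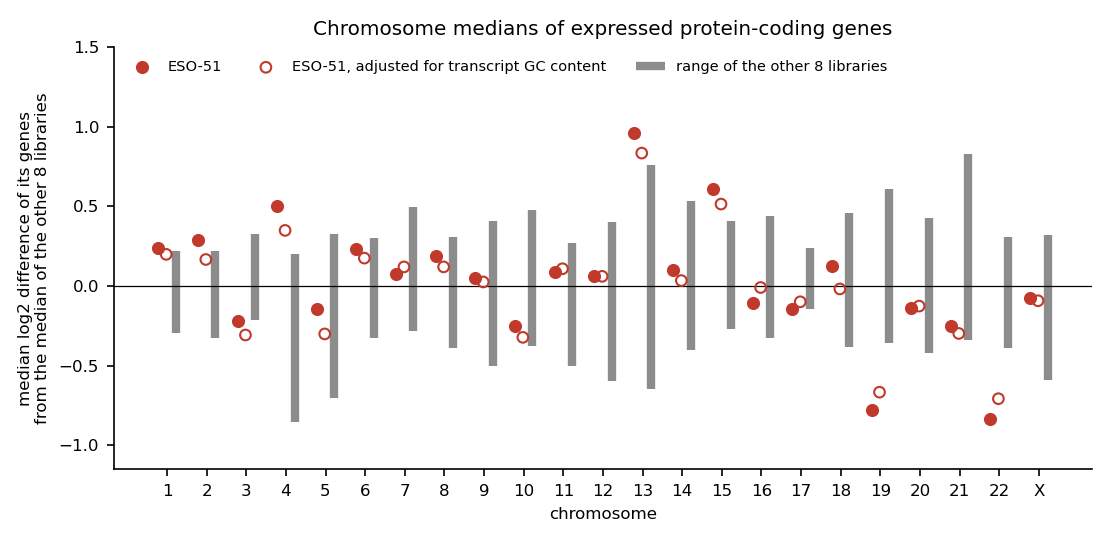
Median, over the expressed protein-coding genes of each chromosome, of the ESO-51 difference from the median of the other 8 libraries in log2(CPM + 1), as filled red points, and the same after subtraction of the median of genes of like GC content, as open points. Grey bars span the medians of the other 8 libraries, each taken against its own other 8 and without GC adjustment. The filled points of chromosomes 4, 13 and 15 lie above the grey bars, and those of chromosomes 19 and 22 below them. Their open points lie on the same sides, chromosome 13 only narrowly (0.83 against a highest of 0.76). For the open points the bars are not a like comparison, since only ESO-51 was adjusted.

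Receptors other than ERBB2 moved in both directions. Of 28 measured receptor tyrosine kinases 6 were over 2-fold above and 4 below, and the median was -0.02, which lay between -0.15 and 0.15 over all settings tried. MERTK, a receptor of the TAM family that clears dead cells, had 64.4 CPM in ESO-51, against 1.35, 3.80 and 50.8 CPM, while its family member AXL was the lowest of the 9. FGFR3 had 134 CPM, against 0.845, 15.9 and 98.5 CPM. Among ligands, betacellulin (BTC) had 20.9 CPM, above every other library (highest 11.3 CPM). Epiregulin (EREG) had 2.24 CPM, against a median of 156 CPM, TGFA had 24.7 CPM, against 82.7 CPM, and FGF2 had 3 counts (0.0666 CPM), against a median of 6.72 CPM.

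Surface antigens that antibodies target were divided as well, with 11 of 27 above and 7 below. High members were CDH17, DPEP1 and GUCY2C, given above, and MUC13. CEACAM6, a glycoprotein related to carcinoembryonic antigen, was low at 0.799 CPM, against a median of 96.3 CPM and a highest of 925 CPM.

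Among cell cycle genes, mitosis genes were mostly within 2-fold of the median, and more replication genes and regulators lay over 2-fold below it than over 2-fold above it. Mitosis genes had a median of -0.02 (2 of 20 above, 2 below), with CCNB2 at 129 CPM (median elsewhere 50.6), HMMR at 138 CPM (highest elsewhere 116), TOP2A at 377 CPM (median elsewhere 767) and KIF20A at 32.7 CPM (lowest elsewhere 43.04). DNA replication genes had a median of -0.50 (0 of 20 above, 5 below). RFC4, a clamp loader subunit, was below every other library at 14.9 CPM (lowest 32.2 CPM), and CDC45, a helicase component, had 8.50 CPM, against a median of 41.6 CPM. MCM5 (37.6 CPM) and RRM1 (60.96 CPM) were also over 2-fold below the median. In the list of cell cycle regulators 2 of 23 were above and 7 below, among them MYCL at 12.8 CPM (highest elsewhere 12.9) and CDKN2C at 5.41 CPM (median elsewhere 19.1).

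Of 24 tumour suppressors 20 were within 2-fold of the median. NF2, the merlin gene on chromosome 22, had 59.01 CPM and was below every other library (70.3, 140.1 and 309 CPM). TGFBR2, a receptor of TGF-beta, had 66.4 CPM, against a median of 159 CPM. ARID2 was the only tumour suppressor over 2-fold above.

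Interferon response genes were high as a group. Of 26 measured members 19 were over 2-fold above the median of the other 8 and 0 were over 2-fold below, with a median difference of 1.72, between 1.52 and 2.28 over all settings tried. IFI27 had 664 CPM in ESO-51, against 0.25, 1.99 and 181 CPM. MX1, a GTPase that blocks viruses, had 443 CPM, against 0.394, 11.2 and 220.3 CPM. IFI44L had 103 CPM, against 0, 1.70 and 63.8 CPM, and OAS2, which senses double-stranded RNA, had 98.2 CPM, second to 125 CPM in OACP4_C. No member was called higher, and for most of them OACP4_C or OE33 was the nearest library. Over the 26 genes the sum was 3641 CPM in ESO-51, 2949 CPM in OE33, 2946 CPM in OACP4_C and 124 to 1188 CPM in the remaining 6.

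Antigen presentation was close to the other lines. MHC class I genes had a median of 0.45 (4 of 15 above, 0 below), with HLA-B at 623 CPM (median elsewhere 193), HLA-F at 26.1 CPM (13.4), the immunoproteasome subunit PSMB8 at 84.1 CPM (41.8) and the trimming enzyme ERAP2 at 53.8 CPM (7.44). Among class II genes HLA-DRB1 was called higher at 10.5 CPM (highest elsewhere 1.31), a call lost with a pseudocount of 5, HLA-DQB1 had 13.1 CPM (highest elsewhere 20.8), and the lysosomal protease CTSS had 51.6 CPM (highest elsewhere 48.1). HLA genes differ between people and share sequence, so their counts are uncertain. In the list of cytokines, chemokines and NF-kB targets, CXCL8 had 0.399 CPM, against a median of 6.56 CPM, and CXCL1 had 0.688 CPM, against 10.7 CPM. IL18 (10.4 CPM, median elsewhere 43.1) and NFKB2 (18.7 CPM, median elsewhere 62.5) were over 2-fold below, and over the whole list 2 of 25 were above, 6 below and 17 within 2-fold, with a median of -0.27.

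Cholesterol synthesis genes were low as a group. Of 22 members 0 were over 2-fold above and 14 were over 2-fold below the median of the other 8, and 14 were below every other library, against 10.7% of all measured genes. The median difference was -1.10, between -1.29 and -0.71 over all settings tried. CYP51A1, the lanosterol demethylase, had 2.75 CPM in ESO-51, against 4.46, 15.8 and 29.6 CPM. MVD, the mevalonate diphosphate decarboxylase, had 10.1 CPM, against 25.00, 47.97 and 114 CPM. SREBF2, the transcription factor that drives this pathway, had 76.5 CPM, against 125, 252 and 318 CPM. These 3 genes were lowest in ESO-51, and the list summed to 998 CPM there, against 1667 to 5153 CPM. SREBF2 lies on chromosome 22, which was low in ESO-51 as a whole.

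Amino acid transporters were high, with 12 of 23 members above and 2 below and a median of 1.14, or 0.62 with a pseudocount of 5 and 0.54 with the authors' FPKM. SLC7A9 and SLC3A1, which together form the cystine transporter of kidney and intestine, were both called higher, although the 4-fold gap of SLC3A1 was lost with a pseudocount of 5 and with FPKM (0.75 at the lowest). SLC7A9 had 26.9 CPM in ESO-51, against 0, 0.16 and 0.939 CPM, and SLC3A1 had 13.96 CPM, against 0.109, 0.831 and 1.97 CPM. SLC7A8 had 13.4 CPM (highest elsewhere 7.92), and the glutamate transporter SLC1A1 had 35.2 CPM (median elsewhere 1.97). In the list of unfolded protein and amino acid stress genes, SESN2 (144 CPM, highest elsewhere 82.1) and DDIT3 (51.3 CPM, highest elsewhere 34.4) were above every other library, while CHAC1 (37.9 CPM, median elsewhere 7.57) and TRIB3 (390.2 CPM, median elsewhere 140.1) were over 2-fold above the median, with 6 of 20 members above and 2 below.

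Genes of drug and xenobiotic metabolism had 18 of 41 members above and 7 below, with a median of 0.70, or 0.18 with a pseudocount of 5 and 0.27 with the authors' FPKM. Besides ALDH1A1 and CYP2W1, UGT1A6, a glucuronosyltransferase, had 153 CPM, above 132 CPM in SK-GT-4 and a median of 0.103 CPM, although the UGT1A genes share exons and their reads cannot be cleanly split. CYP2B6 had 15.6 CPM (highest elsewhere 8.57). In the bile acid list CYP27A1, a sterol hydroxylase, had 20.2 CPM (highest elsewhere 7.57) and the nuclear receptor NR0B2 had 5.22 CPM (highest elsewhere 1.19), both above every other library. ABCC2, an export pump for conjugates, had 33.2 CPM (median elsewhere 3.68), and SLC27A5, a bile acid ligase, was below every other library at 0.444 CPM (lowest 3.72). That list had 5 of 13 above and 1 below.

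NRF2 targets were divided, with 6 of 21 above and 6 below: GPX2, a gut glutathione peroxidase, had 235 CPM (median elsewhere 1.30), while the aldo-keto reductases AKR1C1 and AKR1C2, close copies of each other, had 50.9 and 30.7 CPM (medians elsewhere 359 and 192). The differences of both turned positive, to 0.75 and 0.37, without OE19 and SK-GT-4. Lipid handling genes were mostly within 2-fold (16 of 21), with PPARA at 89.9 CPM (median elsewhere 28.9), PPARG at 25.7 CPM (69.5) and APOE at 2.22 CPM (13.2). Hypoxia and glycolysis genes had 4 of 22 above and 6 below. VEGFA had 399 CPM, against a median of 68.7 CPM, CA9 had 8.03 CPM, against 1.24 CPM, and LDHA, lactate dehydrogenase A, had 186 CPM, below every other library (lowest 284 CPM). ALDOC, an aldolase, was called lower at 0.91 CPM, against 14.6, 26.6 and 103 CPM.

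Metallothioneins, which bind zinc and copper, had a median of -1.42, with 0 of 7 members above and 6 below, or -0.45 with a pseudocount of 5 and -0.92 with the authors' FPKM. MT2A had 0.71 CPM in ESO-51, against 0.531, 61.1 and 271 CPM, and MT1E had 1 count (0.0222 CPM), against a median of 25.7 CPM. These genes are near-identical copies, so the split of reads among them is uncertain. Posterior HOX genes had 0 of 15 above and 5 below, with HOXC10 at 0.777 CPM (median elsewhere 13.6) and HOXB9 at 3.68 CPM (median elsewhere 10.7). Cancer-testis antigens had 1 of 13 above and 0 below.

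Among the 20 genes called lower, 19 were protein-coding and 7 lay on chromosome 19. That chromosome held 656 of the 9994 expressed protein-coding genes. ZNF160, a zinc finger gene of a cluster on chromosome 19, had 0 counts in ESO-51, which allows up to 0.0666 CPM, against 13.95, 26.1 and 50.1 CPM in the other 8, and was at least 209.6-fold below the lowest of them. Of 26 measured zinc finger genes of this cluster, ZNF160 included, 1 was over 2-fold above and 5 were below, and the list's median was -0.07. ZNF320 (0.288 CPM, median elsewhere 23.1), ZNF83 (1.31 CPM, 26.4) and ZNF28 (3.42 CPM, 35.3) were low, while ZNF468 (33.6 CPM, 25.2), ZNF761 (28.9 CPM, 25.5) and ZNF525 (22.1 CPM, 18.9) were near the median; these last 3 were picked after their values were seen.

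DUSP23, a small phosphatase, also had 0 counts, against 8.57, 17.5 and 36.03 CPM, and was at least 128.8-fold below the lowest. ZNF512 had 1 count (0.0222 CPM), against 5.39, 7.30 and 26.1 CPM. ID1, an inhibitor of basic helix-loop-helix factors and a target of BMP signalling, had 3.77 CPM in ESO-51, against 46.6, 194 and 309.7 CPM. Its gap and that of S100A6 held under each of those 7 settings, while those of the other 8 genes ranked lowest did not hold with a pseudocount of 5, and 7 of these 8 did not hold with the authors' FPKM. For ZNF160, DUSP23, ZNF512, KIAA0355, GRAMD1A, FCHSD1 and ALDOC the loss with a pseudocount of 5 was fixed in advance. The lowest level elsewhere was too small for a 4-fold gap on that scale, even at 0 counts in ESO-51. KIAA0355 had 0.355 CPM (lowest elsewhere 12.7), GRAMD1A, a sterol transporter, had 0.976 CPM (12.04), TSPAN4, a tetraspanin, had 3.08 CPM (24.4) and FCHSD1 had 0.777 CPM (9.89).

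MIRLET7BHG, the long non-coding host gene of let-7 microRNAs on chromosome 22, was the only called gene of another biotype in this direction, at 0.644 CPM (a call lost with a pseudocount of 5 and with FPKM), against 9.27, 10.8 and 34.5 CPM. The genes just inside the 4-fold line were SELENOM, a selenoprotein (2.003), AHNAK2 (2.02) and CAVIN1 (2.16), and just outside it were TGFB1, transforming growth factor beta (1.88), TACC1 (1.87) and ZDHHC8 (1.999). ESO-51 was under 1 CPM for 11 of the 20 genes. The nearest library was most often SK-GT-4, for 7 of the 20, and without it 36 genes were called lower.

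By overall profile ESO-51 was no outlier. Over 17117 genes at 1 CPM or more in at least 2 libraries, its Pearson correlation in log2(CPM + 1) was 0.858 with OACP4_C, 0.853 with SK-GT-4, 0.825 with OAC_5.1_C, 0.822 with FLO-1, 0.814 with OE19, 0.811 with JH_EsoAd1, 0.773 with OE33 and 0.762 with ESO-26. These correlations run across genes, which are not independent, and all libraries share the mean level of each gene. Their median of 0.818 compares with 0.811 over the 36 pairs of libraries in the series. OACP4_C and SK-GT-4 were the nearest, with 9.13% and 9.24% of the genes over 4-fold apart from ESO-51, and ESO-26 was the furthest, with 2735 genes over 4-fold apart. OE19, which shared much of the enterocyte programme with ESO-51, had 13.1% of genes over 4-fold apart.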

How the data were processed

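RNA-seq was measured in 1 library for each of 9 cell lines. The deposited table holds raw read counts per gene name, 1 column per line. The FPKM values and gene lengths come from per-line files that the authors deposited, matched to the table by name (48795 genes). Per the submitters' processing notes the tools were FastQC 0.11.7, STAR 2.6.1d and R 3.6.1 with GRCh37; the counting tool, gene annotation, strand setting and the joining of technical replicates are not given in the sources used here. Without strand, overlapping and antisense genes share reads.

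A row with a blank name (0.00696% of ESO-51 counts, 0.00485% to 0.00965% in the others) was left out. Genes of the Y chromosome and the X-inactivation transcripts (459 genes) were left out of every result. Counts were scaled with TMM (edgeR 4.0.16 in R 4.3.3) and given as log2(CPM + 1). DESeq2 1.42.0 size factors, library size alone, pseudocounts of 0.5 and 5 CPM, and the authors' FPKM (pseudocount 1) were alternatives. Of 52158 gene names 49790 were found in GENCODE 29, which supplied biotype, chromosome and order. Of 867 listed symbols 856 were found. Members measured at 1 CPM or more in at least 1 library entered the list values, so a gene could pass through ESO-51 alone. With 1 library per line no test was made. The call rule was run on simulated libraries drawn from a common profile, with changes planted in well-expressed genes. Those libraries lack the differences between lines, so the run cannot show how reliable the calls made here are. Poisson intervals (95%, exact) and the floor of 3 counts cover counting error only, and the range of total counts limits the precision of low genes.

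Named genes were, among protein-coding calls, the 15 of largest gap above and the 10 of largest gap below, up to 4 members per list by absolute difference (over 2-fold, at 5 CPM or more) with any called member, all gut transcription factors and 17q12 genes, called genes next to each other, up to 5 called genes of other biotypes per direction, and the 3 genes just inside and outside the 4-fold line. Some genes that this rule names are not reported here. Others are marked as chosen after their values were seen. The members and gene lists were chosen with earlier results of these data known. Other steps ran in Python 3.11.15 (pandas 2.3.3, scipy 1.17.1, numpy 2.4.6, matplotlib 3.10.9).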

Additional observations from a re-analysis of the deposited data

Results flagged for a closer look

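The per-line file of ESO-51 held counts under identifiers that are absent from the deposited gene table and were used in no comparison of the report. They made up 40.6% of the counts in that file, against 25.8% in OE19 at the lowest and 77.3% in JH_EsoAd1 at the highest of the other 8 and a share in ESO-51 that ranked 4 of 9. The largest pair of identifiers, which the files do not name, held 24.4% and 10.8% of the ESO-51 file.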

How the results depend on the processing

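Against 86 genes called higher and 20 called lower in ESO-51, a pseudocount of 5 gave 53 and 3, the authors' FPKM 34 and 2, FPKM rescaled to equal sums 35 and 2, a 2-fold gap 241 and 120, and omission of both OE19 and SK-GT-4 164 and 47. A larger pseudocount shrinks the gaps of low genes and fewer libraries or a smaller gap admit more genes, by construction. FPKM carried a pseudocount of 1, so a gene at low FPKM in ESO-51 could not be called higher. Examples are KIAA1324, A1CF and YAF2, at 2.36, 2.32 and 1.90 FPKM, whose lost calls were fixed in advance. Other causes for FPKM were not tested. DESeq2 size factors gave 83 and 21, library size alone 95 and 16, a pseudocount of 0.5 95 and 23, a floor of 1 CPM or no floor 91 and 21, and GC adjustment 84 and 17. Leaving out 1 other library gave 91 to 121 genes higher and 20 to 36 lower, the most without SK-GT-4 in both directions. The 4-fold gap held under all 7 settings of scaling, pseudocount, unit or GC adjustment for 35 of the 86 and 2 of the 20 genes. Library size alone moved the median gene of ESO-51 by 0.15. The median correlation of 0.818 became 0.811 by Spearman, 0.924 with no gene filter, 0.825 with a pseudocount of 5 and 0.776 over protein-coding genes; the cause was not tested. FN1 (-2.84) ranged from -5.76 to 0.087 when 1 library was left out, with 0.087 without OACP4_C, ESO-26, OAC_5.1_C or JH_EsoAd1, and AKR1C1 and AKR1C2 reversed to 0.75 and 0.37 without OE19 and SK-GT-4. Medians or means of 11 lists changed sign between settings: secreted mucins, receptor tyrosine kinases, EGFR and FGFR ligands, apolipoproteins, tumour suppressors, mitosis, MHC class II, cancer-testis antigens, glycosylation enzymes, haematopoietic markers and fibroblast markers. The rescaled FPKM, GC-adjusted and joint OE19 and SK-GT-4 alternatives were chosen after seeing the data. No paired analysis was possible because each line has 1 library. ESO-51's 40683038 counts put the limit of a count of 0 at 0.0666 CPM.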
